A study of Homo sapiens with 9 samples.

Results

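RNA was measured by sequencing for 10 genes that carry, take up, store, export or sense iron: TF, TFRC, TFR2, SLC11A2, FTH1, FTL, SLC40A1, CP, HAMP and HFE. They were picked out by gene symbol, as 10 of the 60683 genes in the deposited count table. The choice was made with earlier results of these data known. Each symbol matched 1 row. All 10 passed the filter of at least 10 counts over the 9 libraries, which left 22672 genes to test. The cells were Hep3B, an established human liver cancer line, and were cultured for 24 hours in 3 groups of 3 libraries. The groups were vehicle (DMSO) at 20% O2, vehicle at 1% O2, and 32-134D at 1% O2. The compound 32-134D is a bis-bromoindole thiazole that the study developed as an inhibitor of the hypoxia-inducible factors HIF-1 and HIF-2. No cells were given 32-134D at 20% O2, so an effect of the compound outside hypoxia cannot be separated from its effect within it, and every library came from the same single line grown in 6-well plates. The labels call the 3 libraries of each group biological replicates and do not say whether they came from separate passages or days, so p-values measure the spread between these cultures.

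Iron travels in blood bound to transferrin (TF) and enters cells when transferrin binds its receptor (TFRC) and is taken into endosomes, from which SLC11A2 moves the iron into the cytosol. Ferritin, a shell of heavy (FTH1) and light (FTL) subunits, stores the iron that is not used, and ferroportin (SLC40A1) exports it together with the ferroxidase ceruloplasmin (CP). The liver adjusts this traffic for the whole body: hepatocytes make transferrin and ceruloplasmin, and they secrete hepcidin (HAMP), which removes ferroportin from cell surfaces, under the control of sensors that include TFR2 and HFE.

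Total counts ran from 6013980 to 40549699 per library, and levels are given as CPM, counts scaled to library size, here by the TMM method. A gene was called when edgeR's quasi-likelihood test gave a Benjamini-Hochberg false discovery rate (FDR) below 0.05 and the fold change was above 1.5. Summed levels of 8 hepatocyte markers, of which TF is one, lay between 17978 and 19371 CPM in vehicle at 20% O2, between 13061 and 16403 in vehicle at 1% O2 and between 11363 and 17742 with 32-134D. The lower sums at 1% O2 in vehicle came mainly from APOB (apolipoprotein B), at 3256 to 5256 CPM at 20% O2, 377 to 423 in vehicle at 1% O2 and 2707 to 3968 with 32-134D. ALB (albumin) overlapped between all groups, at 5948 to 10208 CPM over all libraries. Of 6 macrophage markers 3 had no count in any library, and the list summed to between 1.37 and 2.22 CPM. Of 6 erythroid markers 3 had no count anywhere, and the sums did not exceed 0.138 CPM. Of 6 endothelial and stromal markers 2 had no count, and the sums lay between 7.12 and 8.32 CPM in vehicle at 20% O2, between 3.11 and 4.53 in vehicle at 1% O2 and between 5.99 and 11.7 with 32-134D, highest in replicate 3. The part of these markers in the results was not tested. Replicate 3 of 32-134D stood apart from the other replicates of its group, and results that rest on it are given with and without it.

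Several of these messages carry iron-responsive elements (IREs), hairpins in the untranslated regions (UTRs) that the iron regulatory proteins bind when iron is scarce. In the UTR at the 5′ end such a hairpin holds back translation, and in the TFRC 3′ UTR it protects the message from decay. The hairpins are shown because iron can act through them on the translation or the decay of a message. Protein-coding transcripts of GENCODE version 29 on GRCh38 were searched, on the strand of the message, for the pattern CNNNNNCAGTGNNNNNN. The 5 bases after the first C had to pair with the last 5, with G-T pairs allowed. It found matches in 5 of the 10 members, against 291 of 19684 protein-coding genes (1.48%). The members were listed as iron genes and the pattern is that of an IRE. The larger share therefore follows from the choice and is not a result. The sites below read 5′ to 3′, and the capitals mark the 6-base loop.
FTH1, 5′ UTR, chr11:61967574-61967602, minus strand: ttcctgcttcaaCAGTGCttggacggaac
FTL, 5′ UTR, chr19:48965335-48965363, plus strand: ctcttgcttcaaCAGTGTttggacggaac
SLC40A1, 5′ UTR, chr2:189580661-189580689, minus strand: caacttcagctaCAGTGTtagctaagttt
TFRC, 3′ UTR, chr3:196050979-196051007, minus strand: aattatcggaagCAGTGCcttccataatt
TFRC, 3′ UTR, chr3:196050575-196050603, minus strand: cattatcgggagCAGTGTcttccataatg
TFRC, 3′ UTR, chr3:196050510-196050538, minus strand: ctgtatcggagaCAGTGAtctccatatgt
TFRC, 3′ UTR, chr3:196050463-196050491, minus strand: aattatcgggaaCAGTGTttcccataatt
The 4 TFRC sites span 545 bases. The FTH1 and FTL sites differ at 3 of 29 positions. The remaining match lay in the 3′ UTR of 1 TF transcript and is not shown. SLC11A2, whose 3′ UTR element has an irregular stem, had no match to these letters, which says only that this pattern was not found in its annotated transcripts. A match describes the letters and was not tested for protein binding.

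HIF proteins bind DNA at short motifs with the core ACGTG or GCGTG, so the 250 bases upstream of each annotated start were read for both, on both strands, from RefSeq promoter sequences on GRCh38.p14. The motifs do not overlap each other in these windows. Sequences were found for 7 members in 11 windows, and TFR2, FTH1 and CP had none. ACGTG occurred in 3 of the 11 windows, those of TFRC, FTL and HFE, against 18.5% of all 35114 promoter windows. Either motif occurred in 5 of the 11, against 43.2% of all windows. The upstream sequences of TFRC and FTL are given because these members rose at 1% O2, with motif letters in capitals.
TFRC, chr3:196082091-196082340, minus strand: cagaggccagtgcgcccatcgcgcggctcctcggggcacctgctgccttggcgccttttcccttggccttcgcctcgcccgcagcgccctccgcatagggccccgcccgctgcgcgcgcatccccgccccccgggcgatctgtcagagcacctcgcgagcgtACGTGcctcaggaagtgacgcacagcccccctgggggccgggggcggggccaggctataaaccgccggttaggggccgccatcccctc
FTL, chr19:48965059-48965308, plus strand: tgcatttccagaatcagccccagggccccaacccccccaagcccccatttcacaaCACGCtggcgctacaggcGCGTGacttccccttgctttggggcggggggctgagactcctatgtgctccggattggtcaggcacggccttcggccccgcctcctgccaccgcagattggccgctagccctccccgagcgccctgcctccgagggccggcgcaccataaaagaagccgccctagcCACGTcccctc
The TFRC window held 1 ACGTG, which began 88 bases before the start. In FTL, ACGTG was read on the opposite strand 11 bases before the start, as CACGT, and GCGTG occurred on each strand farther upstream. HFE held ACGTG 10 bases before its start. SLC11A2 held GCGTG at 3 places in 1 of its windows and at 1 place in another. Neither HFE nor SLC11A2 was called in the comparisons below. These motifs are common, and whether HIF bound any of them was not tested here.

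At 1% O2 in vehicle, messages for iron uptake by the transferrin receptor, ferritin storage and ceruloplasmin were higher than at 20% O2, and the message of the second transferrin receptor was lower. TFRC was 1.88-fold, FTL 1.81-fold, CP 1.80-fold and FTH1 1.59-fold of the level at 20% O2, and TFR2 was at 50.8% of it. Thus 5 of 10 members were called, 4 higher and 1 lower, where 39.7% of all genes tested were called, 19.5% higher and 20.3% lower. The share of members called is near that background, while the median log2 fold change was 0.51 over the members and 0.001 over all genes. Without a fold limit 6 of 10 members passed the FDR limit, against 53.5% of all genes. The libraries of the groups did not overlap for 8 of the 10 members, against 60.5% of all genes. In such bulk samples, fewer cells that use a gene and less of its RNA per cell cannot be told apart.

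With 32-134D at 1% O2, the TFRC, FTL, CP and TF messages were lower than in vehicle at 1% O2, at 66.3%, 57.9%, 64.9% and 57.6% of it. These 4 of 10 were all called lower, where 29.9% of all genes tested were called, 13.7% lower and 16.2% higher. The median log2 fold change was -0.52 over the members and -0.01 over all genes. Without a fold limit 6 of 10 passed the FDR limit, against 47.5% of all genes, and the libraries did not overlap for 7 of 10, against 56.1%. The comparison uses the same vehicle libraries at 1% O2 as the first one, so the opposite directions of the 2 comparisons are not independent of each other. Of the 4 calls, those of TFRC and CP lay close to the 1.5-fold limit and that of TF was lost without 1 library, as described for each gene.

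Scaling by total library size moved the median log2 fold change of all genes to -0.21 in the first comparison and to 0.17 in the second, and upper quartile scaling to -0.19 and 0.11. Higher genes made up 49.0% of all calls in the first comparison and 34.5% and 35.7% under these scalings. In the second comparison they made up 54.2%, 72.0% and 66.1%. The direction of each member called here was the same under these scalings.

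**Figure D1:**
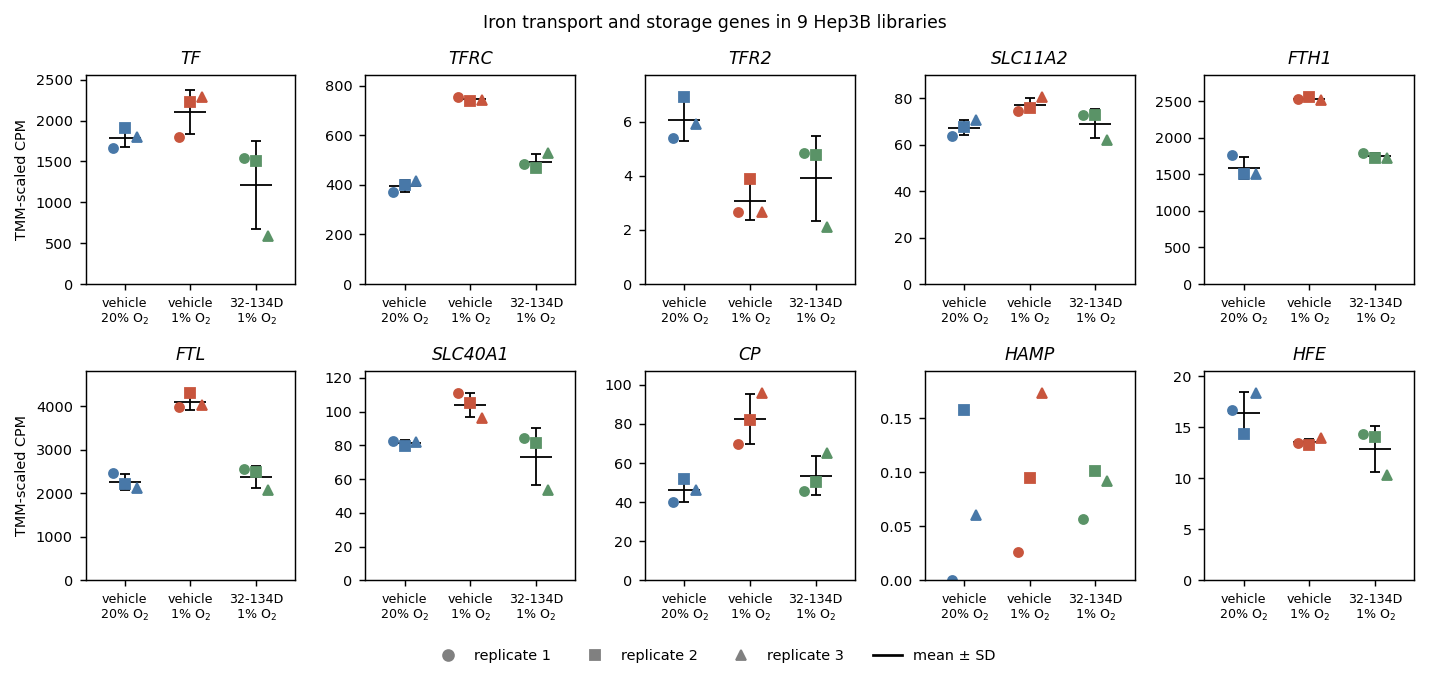
Levels of the 10 iron genes in each of the 9 Hep3B libraries, in TMM-scaled CPM on linear axes from 0, by group. Symbols give the replicate number, and bars give the mean ± SD of 3 libraries, left out for HAMP, which had 18 counts in all. TFRC, FTH1, FTL and CP are higher in vehicle at 1% O2 than in either other group. The triangle of replicate 3 lies lowest with 32-134D for TF, TFR2, SLC11A2, FTL, SLC40A1 and HFE.

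The carrier and its receptors are described first. TF (transferrin, chr3:133745956-133796640, plus strand) was at 1667, 1906 and 1802 CPM in replicates 1, 2 and 3 of vehicle at 20% O2. In vehicle at 1% O2 it was at 1801, 2224 and 2288 CPM, and with 32-134D at 1545, 1505 and 584 CPM. The vehicle groups overlapped, and replicate 3 of 32-134D was far below every other library. At 1% O2 the log2 fold change in vehicle was 0.23 ± 0.25 (SE, edgeR FDR 0.451), with a 95% interval from -0.29 to 0.76. After a filter of at least 1 count in all, this log2 fold change was 0.26 (edgeR FDR 0.00325), short of the fold limit. With 32-134D against vehicle at 1% O2 it was -0.80 ± 0.25 (SE, edgeR FDR 0.0152), and TF was called lower. Without replicate 3 of 32-134D it was -0.46 (FDR 2.3e-05), below the fold limit, and without replicate 3 of vehicle at 1% O2 it was -0.67 (FDR 0.077), so either omission ended the call. The call was also lost with total library size (FDR 0.0507) and with only the 2 groups compared (FDR 0.0733). TF shares 112 exon bases with SRPRB, which lies on the same strand and had 24769 counts against 387889 for TF.

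TFRC (transferrin receptor 1, chr3:196027183-196082189, minus strand) was at 371, 399 and 416 CPM at 20% O2, at 755, 738 and 743 CPM in vehicle at 1% O2 and at 484, 470 and 529 CPM with 32-134D. All 3 groups were apart, with the 32-134D libraries between the vehicle groups. The log2 fold change was 0.91 ± 0.07 (SE, edgeR FDR 5.5e-08) in vehicle at 1% against 20% O2. It was -0.59 ± 0.07 (SE, edgeR FDR 7.6e-06) with 32-134D against vehicle at 1% O2. That decrease was past the FDR limit under each of 18 alternatives, where it ran from -0.64 to -0.41, but in 12 of them the 1.5-fold limit (or the 2-fold limit, in 1) was missed. Among these were the omissions of replicate 1 or 3 of vehicle at 1% O2, which gave -0.58 and -0.53, and of replicate 1 or 2 of 32-134D, which gave -0.52 and -0.56. With 32-134D, TFRC lay above vehicle at 20% O2 by 0.32 ± 0.07 (SE, edgeR FDR 0.0101), a fold of 1.25 that is under the limit for a call.

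TFR2 (transferrin receptor 2, a sensor of iron-loaded transferrin on hepatocytes, chr7:100620416-100642779, minus strand) was present at low levels. It was at 5.38, 6.91 and 5.90 CPM at 20% O2 and at 2.68, 3.87 and 2.66 CPM in vehicle at 1% O2. With 32-134D it was at 4.85, 4.78 and 2.10 CPM. The vehicle groups were apart, and replicate 3 of 32-134D lay below both of them. The log2 fold change was -0.98 ± 0.27 (SE, edgeR FDR 0.00644) in vehicle at 1% O2, and TFR2 was the only member called lower there. With 32-134D against vehicle at 1% O2 it was 0.39 ± 0.26 (SE, edgeR FDR 0.238), with a 95% interval from -0.16 to 0.95. Without replicate 3 of 32-134D it was 0.68 (FDR 9.6e-04), and TFR2 was then called higher.

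Iron import past the endosome gave no call. SLC11A2 (divalent metal transporter 1, chr12:50979401-51028566, minus strand) was at 63.9, 67.5 and 70.6 CPM at 20% O2 and at 74.6, 76.0 and 80.5 CPM in vehicle at 1% O2. With 32-134D it was at 72.7, 72.6 and 61.8 CPM. The groups were apart in each comparison with vehicle at 1% O2, by less than the fold limit. The log2 fold change was 0.19 (95% interval 0.02 to 0.37, edgeR FDR 0.0612) in vehicle at 1% O2 and -0.16 (95% interval -0.33 to 0.02, edgeR FDR 0.128) with 32-134D. Under scaling by total library size both signs turned, to -0.02 and 0.03.

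Both ferritin subunits rose at 1% O2, and per kilobase of exon they had the highest levels of the 10 messages. FTH1 (heavy subunit, which carries the ferroxidase site, chr11:61959718-61967660, minus strand) was at 1765, 1506 and 1500 CPM at 20% O2. It was at 2529, 2557 and 2516 CPM in vehicle at 1% O2 and at 1793, 1722 and 1723 CPM with 32-134D. Vehicle at 1% O2 stood above both other groups, which overlapped each other. Its log2 fold change was 0.67 ± 0.07 (SE, edgeR FDR 2.1e-06) in vehicle at 1% O2. It lay between 0.46 and 0.56, under the fold limit with the FDR passed, under upper quartile scaling, under scaling by total counts, after a filter of 10 counts in each library and after thinning to the smallest library. With 32-134D against vehicle at 1% O2 it was -0.54 ± 0.07 (SE, edgeR FDR 3.0e-05), which passed the FDR limit and missed the fold limit.

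FTL (light subunit, which helps to build the mineral core, chr19:48965301-48966878, plus strand) was at 2473, 2206 and 2130 CPM at 20% O2. It was at 3980, 4300 and 4025 CPM in vehicle at 1% O2 and at 2552, 2490 and 2078 CPM with 32-134D. Here too vehicle at 1% O2 stood above the other groups, and these overlapped. The log2 fold change was 0.85 ± 0.09 (SE, edgeR FDR 1.0e-06) in vehicle at 1% O2 and -0.79 ± 0.09 (SE, edgeR FDR 3.9e-06) with 32-134D. Each of these calls held under every alternative apart from a 2-fold limit. Replicate 3 of 32-134D was at 82.4% of the mean of the other replicates for FTL and at 98.0% for FTH1.

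The ratio of FTL to FTH1 counts within a library needs no scaling between libraries. It was 1.40, 1.46 and 1.42 at 20% O2, 1.57, 1.68 and 1.60 in vehicle at 1% O2, and 1.42, 1.45 and 1.21 with 32-134D. The ratio was thus higher in all libraries of vehicle at 1% O2 than in any other, a description for which no test was run. Both ferritins have many processed pseudogenes. The 25 rows named as FTH1 pseudogenes held 2662 counts, 0.581% of those of FTH1, and the 16 rows named as FTL pseudogenes held 1152, or 0.168% of those of FTL. How reads that fit several of these rows were counted is not given in the sources used here. FTH1 also shares 1267 exon bases with BEST1 on the opposite strand, which had 4670 counts against 458016 for FTH1.

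On the export side ceruloplasmin was called and ferroportin was not, a difference between genes that was not itself tested. SLC40A1 (ferroportin, chr2:189560579-189583758, minus strand) was at 82.9, 79.9 and 82.2 CPM at 20% O2 and at 111, 105 and 96.4 CPM in vehicle at 1% O2. With 32-134D it was at 84.5, 81.2 and 53.8 CPM. Vehicle at 1% O2 stood above both other groups. The log2 fold changes of 0.35 ± 0.13 (SE, edgeR FDR 0.0337) and, with 32-134D, -0.51 ± 0.13 (SE, edgeR FDR 0.00422) missed the fold limit. Without replicate 3 of 32-134D the second value was -0.33.

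CP (ceruloplasmin, a copper-carrying ferroxidase secreted by the liver, chr3:149162410-149222055, minus strand) was at 39.9, 51.7 and 46.5 CPM at 20% O2. It was at 69.8, 82.1 and 95.7 CPM in vehicle at 1% O2 and at 45.6, 50.3 and 65.0 CPM with 32-134D. Vehicle at 1% O2 stood above both other groups, which overlapped each other. The log2 fold change was 0.85 ± 0.14 (SE, edgeR FDR 1.1e-04) in vehicle at 1% O2. With 32-134D it was -0.62 ± 0.14 (SE, edgeR FDR 0.00145), and this call was lost in 10 of 18 alternatives, all of which kept the direction and the FDR limit. They included the omission of replicate 3 of vehicle at 1% O2 (-0.44) and of replicate 1 (-0.46) or 2 (-0.58) of 32-134D. CP shares 1418 exon bases with HPS3 on the opposite strand. HPS3 had 17960 counts against 14077 for CP, and its log2 fold changes were 0.73 (FDR 5.6e-07) and -0.60 (FDR 5.4e-06) in the same comparisons. The strand setting of the counting is not given in the sources used here, and what the shared bases contributed to the CP values was not tested.

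The hormone that governs ferroportin was almost absent from these cells. HAMP (hepcidin, chr19:35280716-35285143, plus strand) had 0, 1 and 2 counts at 20% O2, 1, 2 and 5 counts in vehicle at 1% O2 and 2, 3 and 2 counts with 32-134D. A count of 0 still allows a level of up to 0.215 CPM in replicate 1 of vehicle at 20% O2, where it occurred, and that limit covers counting error only. The groups overlapped, and no difference was detectable at this depth, with a 95% interval for the log2 fold change from -1.52 to 2.87 in vehicle at 1% O2. HFE (the hemochromatosis protein, which binds TFRC and signals with TFR2, chr6:26087281-26098343, plus strand) was at 16.6, 14.3 and 18.3 CPM at 20% O2. It was at 13.4, 13.3 and 13.9 CPM in vehicle at 1% O2 and at 14.3, 14.0 and 10.3 CPM with 32-134D. The log2 fold change was -0.30 (95% interval -0.59 to -0.01, edgeR FDR 0.0739) in vehicle at 1% O2 and -0.07 (95% interval -0.35 to 0.21, edgeR FDR 0.700) with 32-134D, and neither was called.

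**Figure D2:**
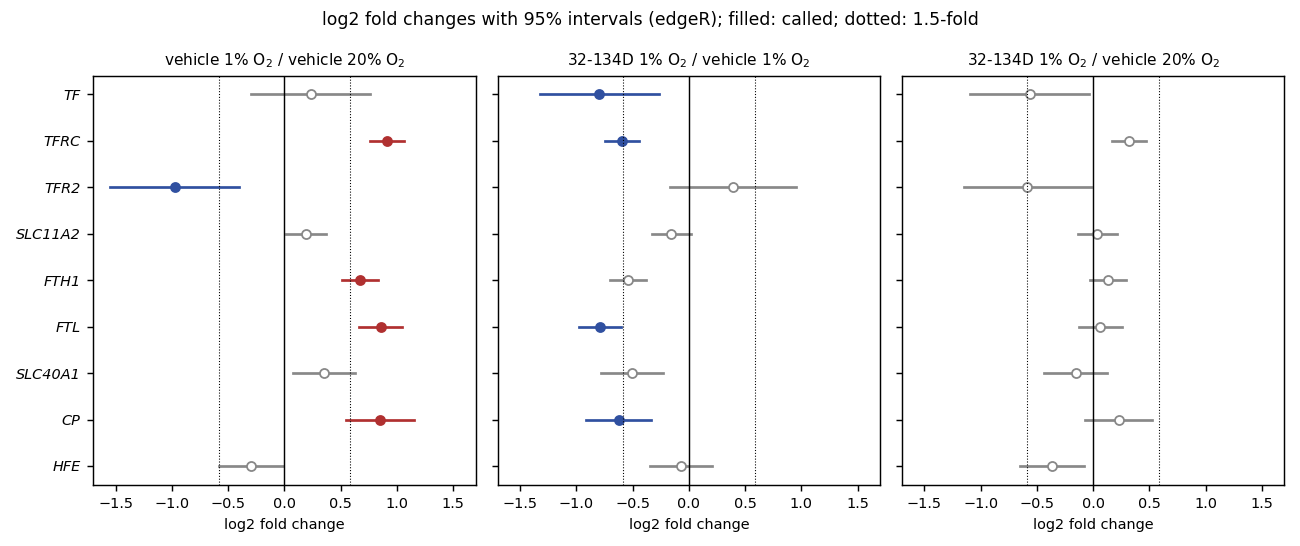
Log2 fold changes of 9 iron genes from 1 edgeR fit of the 9 libraries, with 95% intervals, in 3 panels for vehicle at 1% O2 against 20% O2, 32-134D against vehicle at 1% O2 and 32-134D against vehicle at 20% O2. Filled points are called (red higher, blue lower), dotted lines mark 1.5-fold, and HAMP is left out for its few counts. The 4 called increases of the first panel run from 0.67 to 0.91, and no point is filled in the third.

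Against vehicle at 20% O2, the 32-134D libraries showed 0 of 10 members called by edgeR, where 3.52% of all genes tested were called (3% higher and 0.516% lower), and DESeq2 called 0 as well. At an unadjusted edgeR p under 0.05 the count was 4 of 10, and the share of all genes under that p was not counted. TFRC alone passed the FDR limit without a fold limit, as did 10.3% of all genes. The libraries did not overlap for TF, TFRC and TFR2, 3 of 10 members, against 29.8% of all genes. The 95% intervals of the ferritin differences were narrow, from -0.02 to 0.29 for FTH1 and from -0.12 to 0.25 for FTL. That of CP ran from -0.07 to 0.53. The interval of TF ran from -1.09 to -0.04, that of TFR2 from -1.15 to -0.02 and that of HFE from -0.65 to -0.08. The edgeR FDR was 0.171 for TF, 0.185 for TFR2 and 0.101 for HFE. With upper quartile scaling HFE was at -0.44 (edgeR FDR 0.0445), short of the fold limit. After a filter of at least 1 count in all, TF was at -0.55 (edgeR FDR 3.7e-10) and TFR2 at -0.56 (edgeR FDR 0.0424), also short of it. Without replicate 3 of 32-134D the differences of TF and TFR2 were -0.23 and -0.30 in place of -0.56 and -0.58.

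Replicate 3 of 32-134D was low in several members and in the other hepatocyte markers at once. Against the mean of replicates 1 and 2 it was at 38.3% for TF, 43.7% for TFR2, 64.9% for SLC40A1 and 72.7% for HFE. FTL was at 82.4% and SLC11A2 at 85.1%. CP was at 136% and TFRC at 111%. The other hepatocyte markers were at 20.6% for FGB (fibrinogen beta chain), 27.1% for TTR (transthyretin), 43.2% for AFP (alpha-fetoprotein), 50.6% for APOA1, 64.7% for ALB, 69.0% for APOB and 80.4% for SERPINA1. All 7 were therefore lower in that library, and their part in the TF and TFR2 values was not tested. Replicate 3 had 21044373 counts, fewer than replicates 1 and 2 of the compound and more than 2 of the libraries of vehicle at 20% O2.

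**Figure D3:**
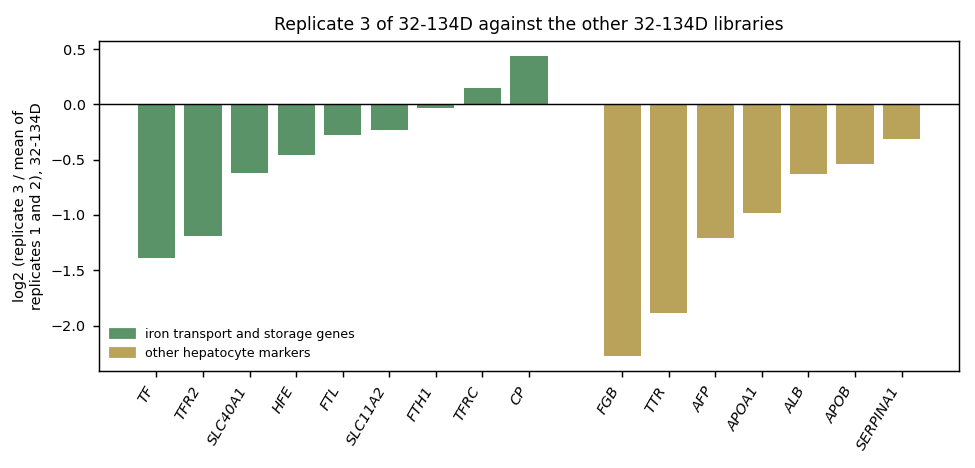
Level of each gene in replicate 3 of 32-134D against the mean of replicates 1 and 2, on a log2 scale, for 9 iron genes (green) and the 7 other hepatocyte markers (yellow), each sorted by value. TF at -1.38 lies between TTR at -1.89 and AFP at -1.21, and TFR2 at -1.19 lies between AFP and APOA1 at -0.98. FTH1 and TFRC lie near 0 and CP is at 0.44.

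Between genes, levels were compared per kilobase of the union of annotated exons. In vehicle at 20% O2 FTL was at 2585 ± 205 CPM per kilobase (SD, n = 3) and FTH1 at 783 ± 74.4. TF followed at 68.4 ± 4.58, TFRC at 50.2 ± 2.87 and SLC40A1 at 18.9 ± 0.359. SLC11A2 at 6.64 ± 0.332 and CP at 6.31 ± 0.805 did not differ beyond their spread on this length. HFE was at 2.89 ± 0.356, TFR2 at 1.20 ± 0.154 and HAMP at 0.0241 ± 0.0263. The annotated exons of TF sum to 26199 bases, mainly through 1 transcript of 20602 bases, while its coding sequence has 2094 bases. Per kilobase of coding sequence, a choice made after seeing those lengths, TF was at 856 and TFRC at 174, and the order differed only in that HFE at 15.7 and CP at 14.4, within their spread, changed places.

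The wider iron and heme pathway was described with a list of 68 other genes, of which 60 passed the filter on counts. In vehicle at 1% O2, 15 of the 60 were called higher and 14 lower, 48.3% against 39.7% of all genes. With scaling by total library size the split was 11 higher and 18 lower, and with upper quartile scaling 11 and 17. With 32-134D against vehicle at 1% O2, 7 were called higher and 13 lower, 33.3% against 29.9% of all genes. That split turned to 13 higher and 7 lower with total library size and to 11 and 8 with upper quartile scaling. Which direction held more pathway calls therefore depended on the scaling. Counts in the smaller groups of genes compare with the same 39.7% and 29.9% of all genes. Against vehicle at 20% O2, edgeR and DESeq2 called 0 of the 60, against 3.52% of all genes by edgeR. An edgeR FDR below 0.05 was reached by 7 of the 60, against 10.3% of all genes. An unadjusted edgeR p under 0.05 was reached by 24, and the share of all genes under that p was not counted. Of the 29 called in vehicle at 1% O2, 12 were higher there and called lower with 32-134D, and 7 were lower and called higher. These comparisons share the vehicle libraries at 1% O2. The share of all genes with such opposite calls was not counted. Whether the pattern is particular to the listed genes was therefore not tested. For 8 genes too few counts were found to test: STEAP4, FTMT and ALAS2 with 0, and LTF, LCN2, SCARA5, HEPH and HEPHL1 with 3 to 6 over all libraries.

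Around uptake, 2 of 6 tested genes were called in vehicle at 1% O2, both lower. STEAP3, the endosomal reductase that prepares iron for SLC11A2, went from 26.8 ± 5.04 CPM (SD, n = 3) at 20% O2 to 7.60 ± 0.774 in vehicle at 1% O2, a log2 fold change of -1.79 (edgeR FDR 1.0e-07). With 32-134D it was at 25.1 ± 3.71 CPM, above vehicle at 1% O2 by 1.72 on the log2 scale (edgeR FDR 2.8e-07). MELTF, a membrane-bound relative of transferrin, fell by 0.81 (edgeR FDR 3.7e-07) in vehicle at 1% O2 on the log2 scale. STEAP3 thus moved opposite to TFRC in both comparisons. Its libraries in vehicle at 1% O2 lay between 6.79 and 8.33 CPM, and no other library was below 21.5.

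Around storage, 2 of 3 tested genes were called in both comparisons. NCOA4, the receptor that delivers ferritin to autophagy, was at 173 ± 6.65, 385 ± 8.73 and 209 ± 6.16 CPM (SD, n = 3) in vehicle at 20% O2, vehicle at 1% O2 and 32-134D. Its log2 fold changes were 1.16 (edgeR FDR 2.1e-09) and -0.88 (edgeR FDR 7.3e-08). PCBP1, a chaperone that loads iron into ferritin, had log2 fold changes of 0.68 (edgeR FDR 1.2e-06) and -0.60 (edgeR FDR 6.1e-06). The NCOA4 calls held under every alternative apart from a 2-fold limit for the second. PCBP1 passed the FDR limit in each alternative but missed the fold limit (the 2-fold limit, in 1) in 5 of 18 for the first comparison, where it ran from 0.46 to 0.74, and in 11 of 18 for the second, where it ran from -0.67 to -0.42. These 11 included the omission of replicate 2 (-0.58) or 3 (-0.50) of vehicle at 1% O2 and of replicate 1 of 32-134D (-0.54).

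Among the iron regulatory proteins and their regulator, 1 of 3 was called. FBXL5, which marks the iron regulatory protein IREB2 for degradation when iron is present, was at 42.9 ± 1.54, 76.6 ± 2.85 and 48.0 ± 2.80 CPM (SD, n = 3) in vehicle at 20% O2, vehicle at 1% O2 and 32-134D. Its log2 fold changes were 0.83 (edgeR FDR 2.9e-07) and -0.67 (edgeR FDR 3.3e-06). The second call missed the fold limit in 5 of 18 alternatives, among them upper quartile scaling, total library size, the filter of 10 counts in each library and thinning, with values from -0.70 to -0.49 over the 18. The binding proteins themselves, ACO1 and IREB2, were not called. With 32-134D against vehicle at 1% O2, ACO1 at -0.37 (edgeR FDR 0.0205) and IREB2 at 0.35 (edgeR FDR 0.00294) passed the FDR limit and missed the fold limit. Of the 4 other genes listed for an IRE, 3 were tested and 0 called by edgeR in each comparison.

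The genes that control hepcidin held 9 calls among 16 in vehicle at 1% O2, 5 higher and 4 lower, and 9 with 32-134D, 4 higher and 5 lower. HJV (hemojuvelin, a BMP co-receptor) was at 4.88 ± 0.306, 0.645 ± 0.322 and 2.74 ± 1.23 CPM (SD, n = 3) in vehicle at 20% O2, vehicle at 1% O2 and 32-134D, with log2 fold changes of -2.87 (edgeR FDR 7.7e-06) and 2.08 (edgeR FDR 2.0e-04). TMPRSS6, the protease that cleaves hemojuvelin, went from 69.3 ± 1.03 to 14.7 ± 2.75 CPM (SD, n = 3) in vehicle at 1% O2, a log2 fold change of -2.25 (edgeR FDR 1.6e-05). With 32-134D it was at 50.3, 49.1 and 15.7 CPM, so that replicate 3 overlapped vehicle at 1% O2, and the log2 fold change was 1.41 (edgeR FDR 0.00116). SMAD6, an inhibitor of BMP signalling, changed by -1.62 (edgeR FDR 7.9e-09) and 1.26 (edgeR FDR 1.9e-07). ERFE (erythroferrone, a hormone that lowers hepcidin) changed by 1.84 (edgeR FDR 1.7e-06) and -1.25 (edgeR FDR 3.0e-05) at levels of at most 4.95 CPM. Without replicate 3 of 32-134D the compound's log2 fold change was 2.37 (edgeR FDR 2.5e-09) for HJV and 1.78 (edgeR FDR 1.4e-14) for TMPRSS6.

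Of the 8 genes of heme synthesis 4 were called in vehicle at 1% O2, 1 higher and 3 lower. CPOX (coproporphyrinogen oxidase) was at 27.3 ± 1.95, 124 ± 1.88 and 39.8 ± 5.36 CPM (SD, n = 3) in the 3 groups, with log2 fold changes of 2.18 (edgeR FDR 2.8e-10) and -1.63 (edgeR FDR 7.8e-09). UROD and UROS, which act before CPOX, changed by -0.87 (edgeR FDR 4.0e-06) and -0.72 (edgeR FDR 4.2e-06) in vehicle at 1% O2. With 32-134D 2 of the 8 were called, 1 higher and 1 lower. CPOX was therefore the only enzyme of the list called higher at 1% O2.

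For heme breakdown and transport, 7 of 11 genes were called in vehicle at 1% O2, 3 higher and 4 lower, and 4 with 32-134D, 1 higher and 3 lower. FLVCR2, a transporter first described for heme, was between 10.5 and 13.1 CPM in vehicle at 20% O2, between 78.0 and 83.8 in vehicle at 1% O2 and at 13.7 ± 5.00 (SD, n = 3) with 32-134D, with log2 fold changes of 2.75 (edgeR FDR 3.4e-08) and -2.54 (edgeR FDR 1.0e-07). HMOX1 (heme oxygenase 1, which frees iron from heme) changed by 1.05 (edgeR FDR 6.6e-07) and -0.93 (edgeR FDR 2.8e-06). BLVRB (biliverdin reductase B) changed by 0.83 (edgeR FDR 9.8e-06) and -0.87 (edgeR FDR 7.0e-06). HPX (hemopexin, the plasma carrier of heme) fell by 0.91 in vehicle at 1% O2 on the log2 scale (edgeR FDR 0.0148), and its level in replicate 3 of 32-134D was 30.7% of that in the other replicates. Without that replicate HPX was above vehicle at 1% O2 by 0.59 (edgeR FDR 2.7e-06) and was called higher, and without replicate 1 of vehicle at 1% O2 its call in the first comparison was lost (edgeR FDR 0.0663).

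In the list on mitochondrial iron and iron-sulfur clusters, 4 of 10 genes were called in vehicle at 1% O2, 3 higher and 1 lower, and 1 was called lower with 32-134D. CISD2, an iron-sulfur protein of the outer mitochondrial and reticulum membranes, changed by 1.04 (edgeR FDR 1.0e-07) and -0.78 (edgeR FDR 2.5e-06). ISCU (the cluster scaffold) and NFS1 (the sulfur donor) rose by 0.70 (edgeR FDR 2.8e-06) and 0.63 (edgeR FDR 3.5e-05) at 1% O2 in vehicle. The ISCU increase missed the fold limit in 4 of 18 alternatives and that of NFS1 in 7, which for NFS1 included the omission of replicate 1 (0.53) or 3 (0.58) of vehicle at 20% O2. Both missed it with upper quartile scaling and with total library size.

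**Figure D4:**
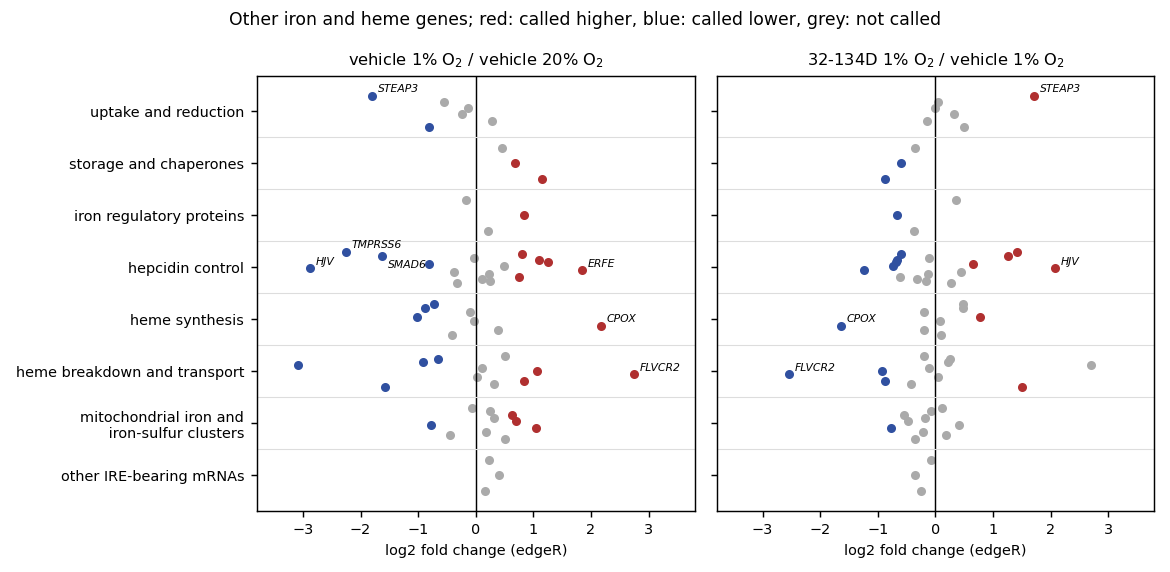
Log2 fold changes of the 60 tested genes of the wider iron and heme list, one row of points per group of genes, for vehicle at 1% O2 against 20% O2 (left) and 32-134D against vehicle at 1% O2 (right). Red is called higher, blue called lower and grey not called, and names are given past 1.5 in either direction for genes with a mean of at least 50 counts. FLVCR2 and CPOX lie at 2.75 and 2.18 on the left and at -2.54 and -1.63 on the right, and STEAP3 and HJV lie on the opposite sides.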

How the data were processed

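The authors deposited raw counts per Ensembl gene, with no normalization. According to the study's methods and the submitters' processing notes, reads were checked with FastQC, trimmed with Bbduk, mapped with STAR to GRCh38 and counted with featureCounts on Ensembl release 100. Tool versions, the strand setting and the handling of reads that map to several places are not given in the sources used here. The labels name a DMEM and F12 mixture as medium, and the methods name high-glucose DMEM.

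Columns were matched to samples by the names in the labels, with 0 left over. Genes with at least 10 counts in all, 22672 of 60683, were tested in 1 fit of the 9 libraries with edgeR 4.0.16 in R 4.3.3 (TMM scaling, quasi-likelihood test), where the study used DESeq2 with the same limits. The common biological coefficient of variation was 10.5%. The procedure was tested on simulated data. No pair of replicates was a duplicate (chi-square of 1.52 to 29.7 for each degree of freedom). Intervals from the fit are at the 95% level, and the limit for a count of 0 is 3 counts.

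The members, the lists and the tests were chosen with earlier results of these data known. Pathway genes are named when called with a mean of at least 50 counts per library, up to 4 per group of genes and comparison with the largest change. The values of some genes of the wider list are not reported here. Positions come from GENCODE 29, of the same assembly as the files. DESeq2 1.42.0, other scalings, filters and fold limits, a replicate block, thinning and the omission of each library were the alternatives.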

Additional observations from a re-analysis of the deposited data

How the results depend on the processing

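Of 540 values of the members' log2 fold changes under alternatives, 483 kept their direction and their side of the limits, 37 lost a call, 5 gained one and 15 turned sign. Most of the 540 belonged to differences that were not called and had no call to lose. With 32-134D against vehicle at 1% O2, the call was lost in 12 of 18 alternatives for TFRC, 10 of 18 for CP, 5 of 18 for TF and 1 of 19 for FTL. Of 108 counts of called genes, 85 stayed within 1.5 times the reported count. The causes were not tested.

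Members called with 32-134D against vehicle at 1% O2 numbered 4, and 2 with RLE size factors, with upper quartile scaling, with DESeq2 and with at least 10 counts in every library. They numbered 1 with total library size and with only the 2 groups compared, and 1 to 4 when 1 library was left out. The lowest, 1 (FTL), came without replicate 3 of vehicle at 1% O2, and 2 came without replicate 1 or 2 of 32-134D. Over all these settings, 26.5% to 34.4% of all genes were called. With a fold limit of 2, 0 members were called in each comparison, and 15 and 8 pathway genes were called in place of 29 and 20, where 25.3% and 16.1% of all genes were called. Without a fold limit, 44 and 36 pathway genes were called, against 53.5% and 47.5% of all genes. Against vehicle at 20% O2, 1 member (TFRC) and 7 pathway genes were called without a fold limit, as were 10.3% of all genes. In that comparison, with the 1.5-fold limit, pathway calls numbered 3 with at least 1 count in all and 1 after thinning, where 3.47% and 3.88% of all genes were called. They numbered 0 to 2 when 1 library was left out, against 2.52% to 4.36% of all genes.

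The signs that turned belonged to values that were not called. For SLC11A2 they were -0.00093 with upper quartile scaling and -0.022 with total library size in vehicle at 1% O2, 0.031 with total library size under 32-134D, and, against vehicle at 20% O2, -0.036 with upper quartile scaling and -0.0032 without replicate 2 of 32-134D. For HFE under 32-134D they were 0.051 with upper quartile scaling, 0.026 with a filter of 10 counts in each library and 0.12 with total library size. When 1 library was left out HFE ran from -0.13 to 0.062, above 0 without replicate 3 of vehicle at 1% O2 (0.016) or of 32-134D. FTL against vehicle at 20% O2 was -0.0091 with upper quartile scaling, and SLC40A1 there ran from -0.27 to 0.017 when 1 library was left out, with the highest value without replicate 3 of 32-134D. HAMP ran from -0.12 to 1.20 in vehicle at 1% O2 and from -0.72 to 0.64 under 32-134D when 1 library was left out. Its sign turned in both without replicate 3 of vehicle at 1% O2, and under 32-134D also without replicate 1 of the compound (0.10).

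With the replicate block 5, 4 and 0 members and 29, 21 and 0 pathway genes were called in the 3 comparisons, against 38.2%, 28.6% and 3.46% of all genes. Deviations of libraries with the same number correlated between -0.032 and 0.0052 over all genes tested. No pairing by number was seen, but counting noise could hide one. For HAMP the depth limits what can be seen.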

Other observations

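Pseudogene rows of the ferritins were read for values that the comparisons above do not use. FTLP12, singled out after its values were seen, had 5, 9 and 12 counts in vehicle at 20% O2, 0, 0 and 1 in vehicle at 1% O2, and 6, 11 and 7 with 32-134D. It was thus lowest where FTL itself was highest. FTLP3, also named after its values were seen, had 20, 13 and 61 counts at 20% O2, 128, 83 and 124 in vehicle at 1% O2, and 85, 88 and 36 with 32-134D, with log2 fold changes of 1.13 (edgeR FDR 9.1e-04) and -0.70 (edgeR FDR 0.0128), the directions of FTL. Reads of FTL that were placed on these rows cannot be told apart from transcripts of the rows themselves.

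TFRC counts per 100 FTH1 counts were 21.1, 26.5 and 27.7 at 20% O2, 29.8, 28.9 and 29.5 in vehicle at 1% O2, and 28.3 ± 2.07 (SD, n = 3) with 32-134D. Only replicate 1 of vehicle at 20% O2 lay below 26.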
